A study of Mus musculus with 4 samples.

Results

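Transcripts of 10 antigen receptor constant region genes were measured by RNA-seq in sorted bone marrow cells of the mouse. The genes were taken by symbol from a given list, which sets no threshold on their values but was drawn up with earlier results of these data known. They are 4 immunoglobulin heavy chain genes (Ighd, Ighg3, Ighg2b and Igha), 3 light chain genes (Igkc, Iglc1 and Iglc2) and 3 T cell receptor genes (Trbc1, Trbc2 and Trdc). They are 10 of 22 constant region gene models and of 55401 gene models in all. The other 12 constant genes are given for comparison. The question put to these genes was whether their transcripts, read in a stem cell sort, look like transcription of unrearranged receptor genes, often called sterile transcription, or like RNA of mature lymphocytes.

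The label of the cells is long-term HSC (LT-HSC), the self-renewing stem cell from which all blood cells derive, while the paper describes the RNA-seq as one of sorted HSPCs, which also take in progenitor cells. They were compared between 2 Control and 2 KO libraries. A legend of the study names a larger number per group for an RNA-seq plot, and no further libraries were analysed here. Control mice carried floxed alleles of Cpt1a (Cpt1a fl/fl), the gene of the enzyme that passes long-chain fatty acids into mitochondria, and KO mice carried the same alleles with Vav1-Cre, a transgene that deletes them in blood cells of every kind. All were adult mice of a C57BL/6, CD45.2 background, and no treatment is named for them. Per the study's methods, c-Kit+ cells were enriched on beads and LT-HSCs were sorted in general as Lin- EPCR+ c-Kit+ CD48- CD150+ cells. The lineage antibodies named there (Gr-1, CD11b, CD4, CD8, Ter119 and B220) do not include CD3. No label says that the libraries of a group came from separate animals, so the p-values measure only the spread between these libraries, which may be technical.

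A B cell receptor is made of heavy chains and kappa or lambda light chains, and a T cell receptor of alpha and beta or gamma and delta chains. Each chain gene is assembled by RAG1 and RAG2 from variable (V) and joining (J) segments, with diversity (D) segments between them in heavy, beta and delta chains, and is spliced to a constant region. Before assembly the constant regions can already be transcribed from promoters of their own, and such transcripts hold no V segment. V genes can be transcribed before assembly as well. A heavy chain constant gene gives 2 forms by the choice of the end of its RNA, a secreted form that plasma cells make in large amounts and a membrane form that serves as the receptor of B cells. B cells first use Ighm and Ighd, and class switching moves the same V region to a gene further downstream.

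The libraries held 20589218 and 23291747 counts in Control and 34083159 and 33909781 in KO, so that 1 count was worth 0.0486 and 0.0429 CPM (counts scaled to a fixed total per library) in Control and 0.0293 and 0.0295 CPM in KO. Cpt1a itself was at 109 and 105 CPM in Control and 33.1 and 38.1 CPM in KO (log2 fold change -1.60, SE 0.152, adjusted p = 0.00695 by edgeR, which matched the labels). Of 9 stem cell markers none passed the test of edgeR at an adjusted p under 0.05 (0 higher and 1 lower at an unadjusted p under 0.05, and 0 and 1 with DESeq2), and their summed level was 475 and 512 TPM (RSEM's scale of transcripts, with a fixed sum per library and length taken into account) in Control and 523 and 534 TPM in KO. Cd48, whose protein the gate excludes, was at 59.5 and 53.5 CPM in Control and 105 and 96.9 CPM in KO.

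The sequences that set how these genes can be read are those where 2 genes or 2 forms part. Trbc1 and Trbc2 encode the constant region of the T cell receptor beta chain, and their coding parts of 518 bases differ at 23 positions (95.6% identity), so reads can fit both. The last 120 coding bases (positions 399 to 518) hold 19 of the 23 differences, shown in capitals, from the transcripts of GENCODE release M21 (GRCm38).

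Trbc1: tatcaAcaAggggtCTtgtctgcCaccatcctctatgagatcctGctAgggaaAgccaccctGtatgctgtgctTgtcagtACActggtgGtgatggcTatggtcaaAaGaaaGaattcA
Trbc2: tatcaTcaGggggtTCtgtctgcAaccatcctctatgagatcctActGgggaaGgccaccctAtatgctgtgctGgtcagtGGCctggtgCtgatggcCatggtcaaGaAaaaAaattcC

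For the heavy chain genes, the 3′ end tells the secreted form from the membrane form. In the next 4 sequences the last 24 coding bases that both forms share are in lower case and the coding bases particular to the form are in capitals, from the same source. The secreted end of Ighg2b adds 5 coding bases and its membrane end 212, while the membrane end of Ighd adds 164 and the secreted end of Igha 59.

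Ighg2b secreted form: agaagaccatctcccggtctccggGTAAA
Ighg2b membrane form: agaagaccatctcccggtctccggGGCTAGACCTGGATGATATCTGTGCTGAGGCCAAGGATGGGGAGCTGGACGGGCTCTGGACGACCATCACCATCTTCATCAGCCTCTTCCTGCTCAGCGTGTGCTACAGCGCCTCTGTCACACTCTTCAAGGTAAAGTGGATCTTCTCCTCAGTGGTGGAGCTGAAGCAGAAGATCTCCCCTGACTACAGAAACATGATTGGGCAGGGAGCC
Ighd membrane form: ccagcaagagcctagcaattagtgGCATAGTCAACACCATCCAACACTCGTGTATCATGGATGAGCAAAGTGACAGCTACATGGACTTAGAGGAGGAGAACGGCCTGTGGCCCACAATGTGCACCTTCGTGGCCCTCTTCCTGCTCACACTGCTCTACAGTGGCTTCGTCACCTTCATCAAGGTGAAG
Igha secreted form: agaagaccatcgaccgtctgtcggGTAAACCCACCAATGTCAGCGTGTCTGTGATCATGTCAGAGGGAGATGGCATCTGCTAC

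Over windows of 50 bases, 40.5% of those of Trbc1 and 44.0% of those of Trbc2 were found in both genes and in no other gene. The share was 4.15% for Ighg2b, 1.58% for Ighg3 and 7.65% for Iglc2, each with other constant genes of its own chain, and 1.61% for Trdc, with 511 other genes. No window of Igkc, Iglc1, Ighd or Igha occurred in the annotated transcripts of another gene. At that length, reads of these 4 genes fit no other gene, and RSEM, the authors' counting program, had none of them to divide. The division between Trbc1 and Trbc2 is an estimate, and their sum is given beside them.

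The heavy chain genes lie in a row on chromosome 12, all on the minus strand (coordinates of GRCm38, also called mm10). Ighd (ENSMUSG00000104213, chr12:113406604-113416324) begins 6.41 kb downstream of the start of Ighm, Ighg3 (chr12:113356224-113361232) 61.5 kb, Ighg2b (chr12:113302965-113307933) 115 kb and Igha (chr12:113254830-113260236), the last of the row, 162 kb.

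Ighd encodes the heavy chain of IgD, which B cells carry beside IgM from the same primary RNA. It had 89 and 41 counts in Control and 320 and 297 in KO, or 4.32 and 1.76 CPM against 9.39 and 8.76 CPM. Both KO libraries were above both Control libraries, and the KO libraries lay close together (3.04 ± 1.81 CPM in Control and 9.07 ± 0.446 in KO, mean ± SD, n = 2 each). The log2 fold change was 1.57 (SE 0.596), which did not pass the test over all genes (edgeR, Benjamini-Hochberg adjusted p = 0.431).

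Ighg2b encodes the constant region of IgG2b. It had 62 and 15 counts in Control and 803 and 303 in KO, or 3.01 and 0.644 CPM against 23.6 and 8.94 CPM. The groups did not overlap, although the 2 KO libraries differed from each other by more than counting error (the 95% exact binomial interval of KO replicate 1 was 22.0 to 25.2 CPM). This interval, like the counting intervals and limits below, takes each count as a separate RNA molecule, which is not known here. The log2 fold change was 3.15 (SE 0.781), with an adjusted p of 0.220 by edgeR and of 0.000475 by DESeq2. Without Control replicate 1 edgeR called it (log2 fold change 4.62, adjusted p = 0.00329), and without any 1 of the others it did not (log2 fold change 2.30 to 3.68, adjusted p = 0.0541 to 0.967). Ighg2b held 12.7% and 2.95% of the counts of the 10 genes in Control and 44.5% and 28.5% in KO.

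Igha encodes the heavy chain of IgA. It had 35 and 0 counts in Control and 101 and 102 in KO, or 1.70 and 0 CPM against 2.96 and 3.01 CPM. The KO libraries were alike and both were above Control, whose 2 libraries stood apart. Absence of Igha in Control replicate 2 allows up to 0.129 CPM at this depth, as a limit of 3 counts. The log2 fold change of 1.82 had an SE of 1.88 (edgeR, adjusted p = 0.847).

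Ighg3, which encodes the constant region of IgG3, had 74 counts in KO replicate 1 (2.17 CPM, 95% interval 1.70 to 2.73) and 0 in the other 3 libraries. The count of 0 in KO replicate 2 allows up to 0.0885 CPM, so the 2 KO libraries differed beyond counting error if each count is a separate molecule. A gene seen in 1 library did not pass the filter on low counts, and Ighg3 was not tested in the fit of all 4 libraries with that filter.

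**Figure D1:**
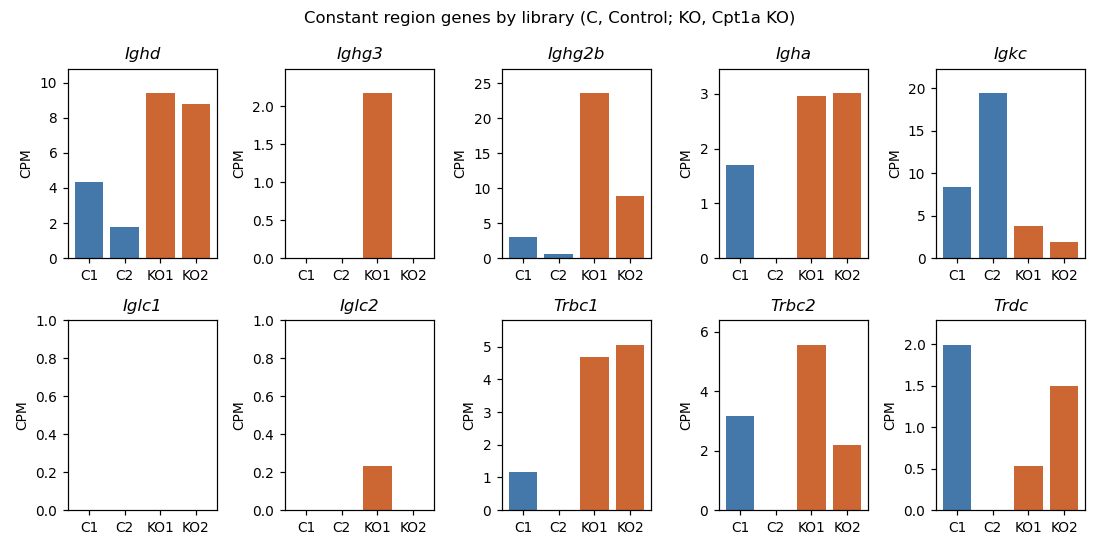
CPM of each of the 10 constant region genes in Control replicates 1 and 2 (C1 and C2, blue) and KO replicates 1 and 2 (KO1 and KO2, orange), 1 bar a library, each panel with its own linear axis from 0. Ighd, Ighg2b, Igha and Trbc1 are higher in both KO libraries than in either Control library, and Igkc is lower in both. C2 has no bar for 7 of the 10 genes and the highest bar for Igkc.

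The other genes of the row set the scale. Ighm, whose product is the heavy chain of IgM, had 4549 and 6681 counts in Control and 13982 and 12599 in KO, and took 91.4% to 99.2% of all heavy chain constant counts of a library. Its level was 225 and 299 TPM in Control against 417 and 381 TPM in the KO libraries (log2 fold change 0.61, SE 0.140, adjusted p = 0.186 by edgeR and 0.000313 by DESeq2). Relative to Ighm, the level of Ighd was 1.70% and 0.524% in Control and 2.05% and 2.07% in KO. The level of Ighg2b relative to Ighm was 1.03% and 0.347% in Control and 6.94% and 2.70% in KO, so the groups did not overlap in this ratio either. Ighg1, next to Ighg2b in the row, was at 0 in all libraries, while Ighg2c had 8 counts and Ighe 9, both in KO replicate 1 alone. KO replicate 1 was thus the library with counts in 7 of 8 heavy chain constant genes, against 4, 3 and 4 in Control replicate 1, Control replicate 2 and KO replicate 2.

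**Figure D2:**
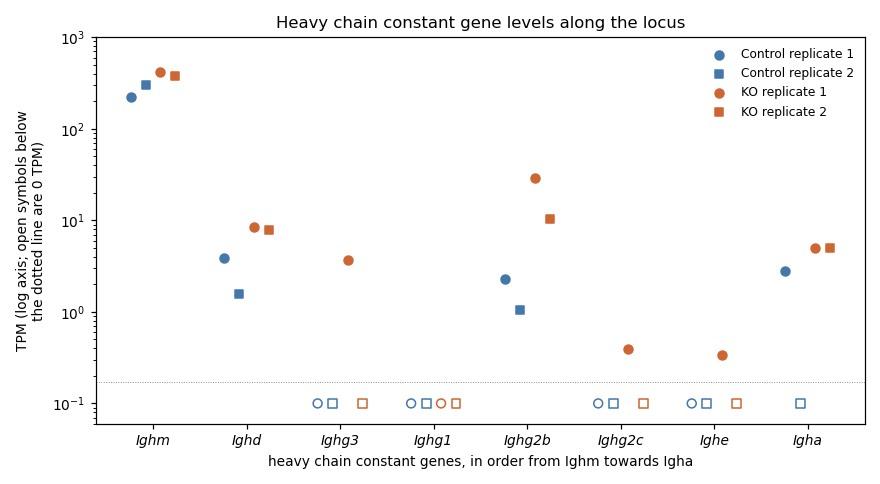
TPM (log axis) of the 8 heavy chain constant genes in each library, in their order along the chromosome from Ighm to Igha, with open symbols below the dotted line for values of 0. Ighm lies at 225 to 417 TPM in all libraries, the genes downstream of it at 29.0 TPM or below, and Ighg1 at 0.

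Among the light chain genes, Igkc alone was found in all libraries. Igkc (ENSMUSG00000076609, chr6:70726435-70726966, plus strand) encodes the constant region of the kappa chain, the light chain that most mouse antibodies use. It had 173 and 452 counts in Control and 130 and 66 in KO, or 8.40 and 19.4 CPM against 3.81 and 1.95 CPM. Both KO libraries were below both Control libraries, in the direction opposite to the heavy chain genes. The log2 fold change was -2.29 (SE 0.583), with an adjusted p of 0.232 by edgeR and of 0.00131 by DESeq2. Without Control replicate 1 edgeR called it (log2 fold change -2.77, adjusted p = 0.0102), and without any 1 of the others it did not (log2 fold change -2.84 to -1.54, adjusted p = 0.293 to 0.833). The Control libraries differed from each other, since the 95% counting interval was 7.20 to 9.75 CPM in replicate 1 and 17.7 to 21.3 CPM in replicate 2. Igkc made up 35.4% and 89.0% of the counts of the 10 genes in Control and 7.21% and 6.20% in KO. Relative to Ighm, its level was 18.5% and 32.9% in Control and 4.71% and 2.62% in KO.

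The lambda genes on chromosome 16 had few counts or none. Iglc1 (chr16:19061618-19062071) had 0 counts in all 4 libraries, which allows up to 0.146 and 0.129 CPM in Control and 0.0880 and 0.0885 CPM in KO. Iglc2 (chr16:19198396-19200351) had 8 counts in KO replicate 1 and 0 elsewhere. Its near copy Iglc3 (96.2% identity over the coding part) had 26 counts in the same library and 0 elsewhere, and Iglc4 had none.

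The T cell receptor genes shared an empty library: Trbc1, Trbc2 and Trdc each had 0 counts in Control replicate 2, which allows up to 0.129 CPM for each. Trbc1 (ENSMUSG00000076490, chr6:41538218-41539881) had 23.8 counts in Control replicate 1 and 160 and 171 in KO, or 1.17 CPM against 4.69 and 5.04 CPM. Both KO libraries were above Control (log2 fold change 3.06, SE 1.64, adjusted p = 0.567 by edgeR). Trbc2 (ENSMUSG00000076498, chr6:41546730-41548352) had 65.2 counts in Control replicate 1 and 189 and 74 in KO, or 3.16 CPM against 5.55 and 2.18 CPM, so that the groups overlapped (log2 fold change 1.29, SE 1.73, adjusted p = 0.902 by edgeR). Summed, the 2 beta chain genes had 89 and 0 counts in Control and 349 and 245 in KO (log2 fold change 2.02, SE 1.56, adjusted p = 0.748 by edgeR when tested as 1 gene). In the sum both KO libraries were above both Control libraries. Without Control replicate 1 edgeR called Trbc1 and Trbc2 singly (adjusted p = 0.00813 and 0.0334), against a Control library with no count of either. Without any 1 of the other libraries neither was called.

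Trdc (chr14:54142851-54148868) encodes the constant region of the delta chain. It had 41 and 0 counts in Control and 18 and 51 in KO, and the groups overlapped (log2 fold change 0.04, SE 2.30, adjusted p = 0.999 by edgeR). Trac, the alpha chain constant gene that lies in the same locus, was at 0 in all libraries. Of the gamma chain constant genes, Tcrg-C1 had 0 and 20 counts in Control and 46 and 1 in KO, Tcrg-C2 0 and 0 against 17 and 40, Tcrg-C4 12 and 0 against 47 and 39, and Tcrg-C3 none.

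Per length, Igkc was the highest of the 10 genes in both Control libraries, at 41.7 and 98.6 TPM, above 9.97 TPM for Trbc2 in Control replicate 1 and 1.57 TPM for Ighd in Control replicate 2, the next in each. In KO replicate 1 the order was Ighg2b (29.0 TPM), Igkc (19.7), Trbc2 (18.0) and Trbc1 (13.9). In KO replicate 2 it was Trbc1 (22.1 TPM), Ighg2b (10.3), Igkc (10), Ighd (7.89) and Trbc2 (7.06). The 2 KO libraries thus put different genes first, and over both, the levels of Ighg2b (19.6 ± 13.2 TPM), Trbc1 (18.0 ± 5.85), Igkc (14.8 ± 6.82) and Trbc2 (12.5 ± 7.76) were within 1 SD of each other. Ighd (8.22 ± 0.467 TPM) and Igha (4.98 ± 0.0212 TPM) were close between the KO libraries. The summed level of the 10 genes was 67.5 and 101 TPM in Control and 98.9 and 62.9 TPM in KO, with overlapping groups, while the summed CPM was 23.8 and 21.8 against 52.9 and 31.4.

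Of the 10 genes, 7 passed the filter and were tested. With edgeR, 0 of 7 passed both an adjusted p under 0.05 and a log2 fold change beyond 1 in size, where 0.396% of the 14635 genes tested were called higher in KO and 0.178% lower. At the same fold with an unadjusted p under 0.05, edgeR gave 2 higher (Ighd and Ighg2b) and 1 lower (Igkc), where the background was 2.44% and 1.33%. DESeq2 at that same threshold, the combination the study's methods name, gave 3 higher (Ighd, Ighg2b and Trbc1) and 1 lower (Igkc), where the background was 4.09% and 2.28%. At an adjusted p under 0.05, DESeq2 called Ighd (with 0.0487) and Ighg2b higher and Igkc lower, where the background was 1.97% higher and 1.20% lower. In CPM 4 of 7 genes had both KO libraries above both Control libraries and 1 of 7 had both below, where 23.7% and 18.3% of all genes tested did. The median log2 fold change of the 7 was 1.57 (6 above 0 and 1 below), and that of all genes tested 0.01. Igha, Trbc1, Trbc2 and Trdc had no count in Control replicate 2 and could pass the filter only with their KO counts. The median and the signs of the 7 can therefore lean towards KO and are a description only. Of the 12 other constant genes 4 were tested and 0 were called by edgeR or DESeq2. At an unadjusted p under 0.05 with the fold limit edgeR passed 0 of them and DESeq2 1, Tcrg-C2, which had no count in Control. In bulk RNA, a change in the number of cells that express a gene and a change in RNA per cell cannot be told apart.

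**Figure D3:**
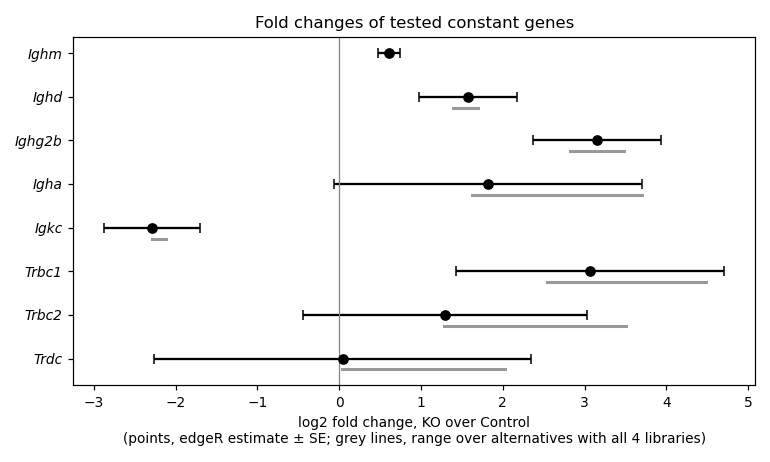
log2 fold changes (KO over Control) of the 7 tested genes and of Ighm, as edgeR estimates ± SE, with grey lines for the range over those alternatives that keep all 4 libraries (not drawn for Ighm). Ighg2b at 3.15 and Igkc at -2.29 lie farthest from 0 relative to their SE among the 7, and the SE of Igha, Trbc2 and Trdc reaches across 0.

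V gene models hold counts of their own, from assembled and unassembled genes alike. D and J models are too short for any fragment to be assigned to them (an effective length of 0 in all libraries), so their counts of 0 carry no information. At the heavy chain locus, V genes had 206 and 246 counts in Control and 281 and 102 in KO, against 4735, 6737, 15297 and 13301 counts in constant genes. V genes thus held 4.17% and 3.52% of the counts of the locus in Control (95% exact binomial intervals 3.63 to 4.76 and 3.10 to 3.98) and 1.80% and 0.761% in KO (1.60 to 2.03 and 0.621 to 0.923). The share was lower in both KO libraries. Ighv11-2 alone held 72.3% of the V counts of Control replicate 1, and without it, a choice made after seeing the data, the shares were 1.19% and 3.34% in Control and 1.18% and 0.761% in KO, so that Control replicate 1 and KO replicate 1 no longer differed beyond counting error. KO replicate 2, with nearly as many constant counts as KO replicate 1, had the fewest V counts of the 4 libraries.

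At the kappa locus the V counts were of the same order as those of Igkc: 81 and 389 in Control and 146 and 39 in KO, against 173, 452, 130 and 66. The V share was 31.9% and 46.3% in Control and 52.9% and 37.1% in KO, with overlapping groups. In TPM, kappa V genes were at 44.03 and 220 in Control and 51.51 and 16.58 in KO. Igkc was at 41.66 and 98.57 TPM in Control and 19.65 and 10 TPM in KO. The library with the most Igkc (Control replicate 2) also had the most kappa V counts, and the library with the least Igkc (KO replicate 2) the fewest. At the lambda locus, KO replicate 1 had 24 V counts (Iglv1) beside its 34 constant counts, and the other libraries had neither.

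At the beta chain locus, V genes had 72 and 30 counts in Control and 62 and 33 in KO, against 89, 0, 349 and 245 in Trbc1 and Trbc2. The V share was 44.7% in Control replicate 1 and 15.1% and 11.9% in KO, and Control replicate 2 had V counts with no constant counts. In TPM, beta chain V genes were at 50.3 and 19.63 in Control and 23.46 and 14.94 in KO. The beta chain constant genes were at 16.15 and 0 TPM in Control and 31.88 and 29.19 TPM in KO. Alpha chain V genes had 10 and 13 counts in Control and 34 and 67 in KO, all without a count in Trac. Gamma chain V genes had 9 counts, in KO replicate 2 alone, against 12, 20, 110 and 80 constant counts, and delta chain V genes had 0 in all libraries beside 41, 0, 18 and 51 counts in Trdc.

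**Figure D4:**
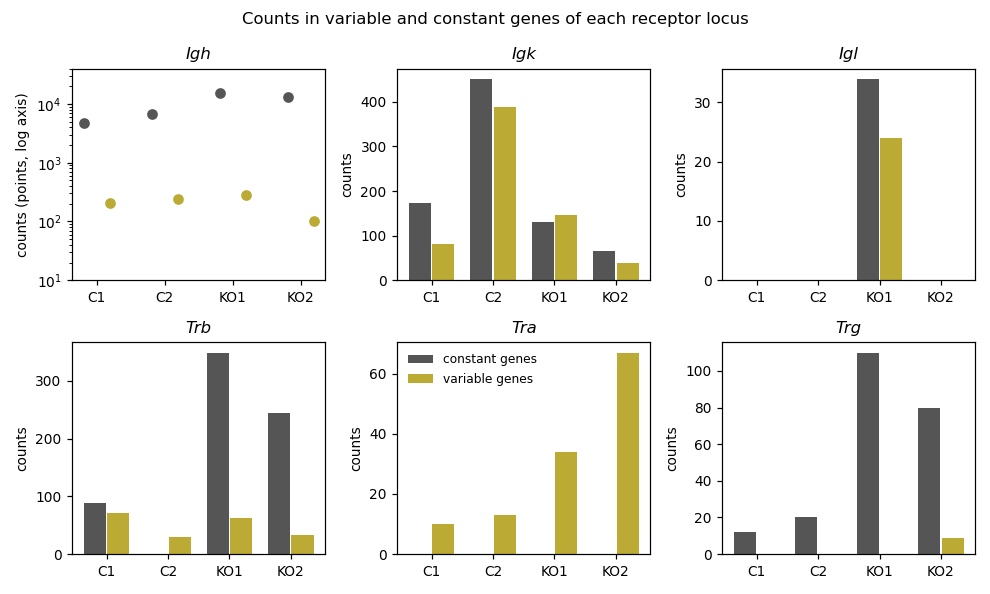
Counts in constant (grey) and variable (yellow) genes of 6 receptor loci in Control (C1 and C2) and KO (KO1 and KO2) libraries, with points on a log axis for Igh and bars from 0 for the others. Variable genes hold 0.761% to 4.17% of the counts at Igh and 31.9% to 52.9% at Igk, and Tra has variable counts only. Counts are not scaled to the length of the genes, which differs between the classes and loci.

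The V counts were spread over few genes in each library. Of 43 V genes with a count, 35 were found in 1 library only and 2, Trbv13-2 and Ighv1-77, in all 4. The kappa V gene Igkv15-103 had 160 counts in Control replicate 2 and none elsewhere, another had 109 in that library alone, Igkv5-43 had 53 in Control replicate 1 alone, Igkv6-20 had 64 in KO replicate 1 alone and Igkv6-15 had all 39 kappa V counts of KO replicate 2. The heavy chain V gene Ighv11-2 was the highest, with 149 and 13 counts in Control and 99 and 0 in KO. Trbv13-2, the V gene with the most beta chain counts, had 72 and 30 in Control and 44 and 33 in KO. The reads carry no molecular identifiers, so how many RNA molecules stand behind such a count is not known. Of the 43 genes, 7 passed the filter and 0 passed the test of edgeR or DESeq2, with no unadjusted p under 0.05 (the lowest by edgeR was 0.451, for Trbv13-2).

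The form of the heavy chain RNA was read from RSEM's length column, which is the mean of a gene's transcript lengths weighted by their estimated levels and so gives the share of each form where a gene has 2. By this estimate Ighd RNA was of the membrane form alone (100%) in all libraries. Ighg2b was mostly of the secreted form in KO, with a membrane share of 20.1% and 24.6%, against 64.2% in Control replicate 1 and 0% in Control replicate 2, the last from 15 counts. Igha, where counted, was of the secreted form alone (a membrane share of 0% in Control replicate 1 and both KO libraries), and so was Ighg3 in KO replicate 1. For Ighm the membrane share was 55.8% and 41.2% in Control and 74.0% and 61.0% in KO, higher in both KO libraries than in either Control library. In levels, the membrane form of Ighm was at 125 and 123 TPM in Control and 309 and 232 TPM in KO, and the secreted form at 99.4 and 176 against 108 and 149 TPM. Such shares have no error of their own in the files and were not tested.

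**Figure D5:**
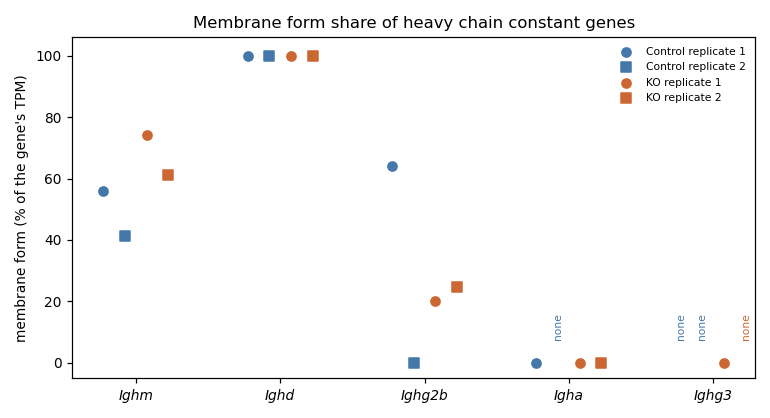
Share of each heavy chain constant gene's TPM in the membrane form, in percent, in each library, with "none" where the gene had no count. Ighd lies at 100% throughout, Igha and Ighg3 at 0% where counted, Ighm at 41.2% to 74.0%, and Ighg2b at 0% to 64.2%.

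Markers of lymphocytes were read beside these values, with counts of list members at an adjusted p under 0.05 and no fold limit, where edgeR passed 0.451% of all genes tested as higher in KO and 0.212% as lower, and DESeq2 4.29% and 3.55%. Of 7 genes of recombination and the pre-antigen receptor, 5 were higher in KO by edgeR (Rag1, Igll1, Vpreb1, Vpreb2 and Vpreb3) and 0 lower (6 and 0 by DESeq2), and their summed level was 309 and 428 TPM in Control and 997 and 824 TPM in KO. Of that sum, Dntt made up 278 and 379 TPM in Control and 573 and 532 TPM in KO. DESeq2 passed Dntt and edgeR did not (edgeR, adjusted p = 0.132). Vpreb1, a part of the surrogate light chain that stands in for a light chain on pre-B cells, was at 12.6 and 12.8 TPM in Control and 132 and 68.0 TPM in KO. Of 10 genes of mature B cells 3 were higher and 0 lower by edgeR (4 and 0 by DESeq2), among the former Cd79a (2.22 and 8.54 TPM in Control and 74.7 and 51.2 in KO) and Cd79b (21.7 and 27.2 TPM against 85.5 and 69.8). These 2 encode signalling parts of the B cell receptor and are made from early B cell stages on. Their list's summed level was 99.3 and 96.2 TPM in Control and 258 and 202 TPM in KO. Of that sum, Cd72 made up 70.3 and 52.4 TPM in Control and 61.0 and 46.9 TPM in KO. In CPM both KO libraries lay below both Control libraries for Cd72 (edgeR, adjusted p = 0.730). Ms4a1, Cr2 and Fcmr, of later B cells, were at 0 in both Control libraries, and in KO at 0.19 and 0.45, 0.20 and 0.93, and 0 TPM. Fcer2a, of the same list, was at 1.40 and 0 TPM in Control and 0.92 and 0.62 in KO, with overlapping groups. The part of such cells in the values of the constant genes was not tested.

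Of 10 plasma cell genes 1 (Mzb1) was higher in KO by edgeR and 0 lower, with 2 higher (Mzb1 and Irf4) and 0 lower by DESeq2, and the summed level was 182 and 179 TPM in Control and 215 and 177 TPM in KO. Mzb1, an endoplasmic reticulum protein of B cells and plasma cells, was at 0 in both Control libraries and at 69.5 and 27.8 TPM in KO, and 53.5% of its windows of 50 bases are shared with another gene, SPATA24. Jchain, which encodes the joining chain of IgM and IgA polymers, was at 5.87 and 2.76 TPM in Control and 1.46 and 0.67 in KO, and Derl3 at 2.51 and 4.65 against 0.15 and 0.52. Neither passed the test (edgeR, adjusted p = 0.665 for Jchain and 0.740 for Derl3). In both the 2 KO libraries lay below the Control libraries. The same held for Xbp1, Sdc1 and Txndc5, which did not pass by edgeR or DESeq2 either. Xbp1 was at 62.45 and 62.75 TPM in Control and 53.07 and 52.54 in KO. Txndc5 was at 78.63 and 68.42 TPM in Control and 64.39 and 64.09 in KO. Xbp1 and Txndc5 were the highest genes of the list in Control, so its sum depends much on them and, in KO, on Mzb1. Irf4, a transcription factor of plasma cells and other lymphocytes, lay the other way, at 0.31 and 0.28 TPM in Control and 3.27 and 0.62 in KO (adjusted p = 0.421 by edgeR and 0.0335 by DESeq2). Tnfrsf17, the BCMA receptor of plasma cells, was at 0 in all libraries, and Prdm1 at 0 and 1.44 TPM in Control and 0.37 and 0.32 in KO. The part of plasma cells in the Igkc values was not tested.

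Of 6 class switching genes tested, 0 passed in either direction by edgeR or DESeq2, with none at an unadjusted p under 0.05. Of 14 T cell genes 0 of the 9 tested passed by edgeR or DESeq2, again with none at an unadjusted p under 0.05. Their summed level was 142 and 95.6 TPM in Control and 95.8 and 107 TPM in KO. Cd3e, Cd8b1 and Ptcra were at 0 in all libraries, and Cd3d and Cd3g at 1.24 TPM or below. Bcl11b was at 0.62 and 0 TPM in Control and 0.65 and 0.94 in KO, and Cd5, Zap70 and Cd8a were each at 0 in some library. Some other T cell genes were found in all libraries. Cd247, a further chain of the receptor complex, was at 2.62 and 0.74 TPM in Control and 2.25 and 3.77 in KO, and Cd4 at 5.51 and 2.05 against 4.17 and 7.25. Lck was at 34.6 to 74.6 TPM and Lat at 42.8 to 57.8 TPM over the 4 libraries. The part of T cells in the values of Trbc1 and Trbc2 was not tested. Of 10 genes of NK and innate lymphoid cells, which can transcribe T cell receptor constant genes without a receptor, 1 was higher by edgeR (Gzmb, at 1.53 and 2.21 TPM in Control and 13.3 and 24.4 in KO) and 0 lower, and DESeq2 passed 2 higher (Gzmb and Prf1, adjusted p = 0.00803 for Prf1) and 1 lower (Nkg7, adjusted p = 0.000124). Their summed level was 201 and 211 TPM in Control and 171 and 172 TPM in KO, of which Nkg7 made up 192 and 206 TPM in Control and 152 and 141 TPM in KO. Ncr1 was at 0 TPM in 3 libraries and at 0.07 in KO replicate 1. Of 6 genes of plasmacytoid dendritic cells, which can carry immunoglobulin heavy chain transcripts, edgeR passed 0 (3 higher at an unadjusted p under 0.05 and 3 with DESeq2). Ly6d among them was at 0 TPM in Control and at 21.7 and 11.6 in KO. Siglech lay the other way, at 1.36 and 0.945 CPM in Control and 0.851 and 0 in KO (edgeR, adjusted p = 0.935). The list's sum was 275 and 234 TPM in Control and 344 and 345 TPM in KO. Of that sum, Bst2 made up 148 and 114 TPM in Control and 155 and 185 TPM in KO. The part of such cells in the heavy chain values was not tested.

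The genes whose pattern over the 4 libraries was most like that of the highest member of each family were taken by the distance of log2(CPM + 0.5) values centred on their mean. Among the 3 nearest to Igkc were Gm15491 (distance 0.349) and Bdh2 (0.374), the latter at 3.21 and 6.23 CPM in Control and 1.58 and 0.560 in KO. Nearest to Ighg2b were Dusp9 (0.601), Slc37a2 (0.716) and Slamf6 (0.739), the last at 2.77 and 0.859 CPM in Control and 15.9 and 12.03 in KO. Nearest to Trbc1 were 5830411N06Rik (0.169), Sytl2 (0.333) and Hcst (0.353), each at 0 in Control replicate 2. With 4 libraries, many genes can share a pattern, and these names are a description only.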

How the data were processed

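RNA was measured by RNA-seq in 2 Control and 2 KO libraries, grouped by their labels. Per the labels, libraries were directional and made from polyA RNA. STAR, RSEM and mm10 are named in the submitters' processing notes. Their versions, the annotation and the strand setting were not given in the sources used here. The authors deposited RSEM expected counts per gene, estimates that need not be whole and were not normalized, with TPM, lengths, and posterior mean counts with their SD. Reads that fit several genes are divided among them by RSEM, which can move counts between Trbc1 and Trbc2 or among lambda and Ighg genes (the posterior SD of Trbc1 and Trbc2 was at most 1.95 counts). Gene models that overlap these genes held at most 1 count in a library.

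Symbols and positions came from GENCODE release M21 (55141 of 55401 models matched). The 10 genes and all marker lists were chosen with earlier results of these data known. Expected counts were rounded and tested with edgeR 4.0.16 in R 4.3.3 (TMM, glmQLFit with robust estimation, glmQLFTest, two-sided, genotype as the only term) on the 14635 genes that passed filterByExpr at a minimum count of 10, with Benjamini-Hochberg adjustment over these genes. The common dispersion was 0.222. A call needed an adjusted p under 0.05 together with a log2 fold change beyond 1 in size, and for marker lists the adjusted p alone. SEs are unshrunk coefficients divided by the square root of F. DESeq2 1.42.0 and limma 3.58.1 on log2(TPM + 1) or log2(TPM + 0.1) served as alternatives, with other filters, scalings, posterior mean counts, an effective length offset, summed near-identical genes, a replicate block and each library left out. The edgeR script was tested on simulated data. CPM is the count scaled to the library's total. Exact 95% intervals and the limit of 3 counts for a count of 0 cover counting error only. They take each count as a separate RNA molecule, so they are too narrow where several counts come from the same molecule. The smallest p that an exact permutation test of 1 gene allows here is 0.333, so none is given. Named genes were all constant genes, Cpt1a, up to 4 members of each marker list with the smallest p and those at 0 in a library, the V genes with the most counts in each locus, and the 3 genes nearest in pattern to Igkc, Ighg2b and Trbc1. Further V genes, Cd48, Jchain, Derl3, Xbp1, Nkg7, Lat, Bst2, Cd72, Kit and Dntt were chosen after their values were seen. Coding and transcript sequences came from the GENCODE M21 transcripts (window comparison over 50 bases, alignment with biopython 1.88). No promoter or protein sequences of these genes were used. Some genes that the naming rule selects are not reported here.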

Additional observations from a re-analysis of the deposited data

How the results depend on the processing

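Over 15 alternatives, 91 of 102 fold changes of the 7 tested genes kept their direction and their side of the threshold. With DESeq2, 2 of the 7 were called higher (Ighd, log2 fold change 1.57, and Ighg2b, 3.15) and 1 lower (Igkc, -2.29), and over all genes 288 were called higher and 176 lower, against 58 and 26 with edgeR. With no filter beyond 1 count, 1 was called lower (Igkc, -2.28, adjusted p = 0.0409, over 18374 genes tested), with 59 lower over all genes. With the replicate number as a block, 1 was called higher (Ighg2b, 3.34, adjusted p = 0.0260). The deviations of samples of the same number had a correlation of -0.0179 across genes. With 2 libraries a group this is 1 value, and it cannot tell whether the numbers pair the libraries. The block moved the genome-wide calls to 54 higher and 30 lower. An effective length offset left 3 genes called higher and 1 lower over all genes, limma on log2(TPM + 1) 5 and 0, and on log2(TPM + 0.1) 0 and 0 (445 and 270 at an unadjusted p under 0.05 with the fold limit). None of these 3 called a constant gene, with 2 or 3 higher and 1 lower at an unadjusted p under 0.05.

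Leaving out 1 library gave 24 to 184 genes called higher and 17 to 115 lower over all genes, and 0 to 3 of the constant genes higher and 0 to 1 lower. All 4 of these calls came without Control replicate 1, where Ighg2b (4.62, adjusted p = 0.00329), Trbc1 and Trbc2 (adjusted p = 0.00813 and 0.0334) were higher and Igkc (-2.77, adjusted p = 0.0102) lower, with the lone Control library assumed to vary like the KO pair. The ranges of the log2 fold changes without 1 library were -2.84 to -1.54 for Igkc, 1.07 to 2.34 for Ighd, 2.30 to 4.62 for Ighg2b, 0.82 to 9.50 for Igha, 2.06 to 10.21 for Trbc1, 0.29 to 9.87 for Trbc2 and -0.96 to 7.95 for Trdc. The upper ends for Igha, Trbc1, Trbc2 and Trdc are fits against Control replicate 2 alone, where they had no count, and are no bounds. Trdc changed direction without Control replicate 2 (-0.96) and without KO replicate 2 (-0.91). The cause of these changes was not tested.

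Depth limits what counts of 0 can show to 0.0880 to 0.146 CPM a library. Iglc1, at 0 throughout, could not be tested, and Iglc2 was tested only with no filter. Ighg3 was tested with no filter and in the fits without Control replicate 1, Control replicate 2 or KO replicate 2. Neither Iglc2 nor Ighg3 was called. A membrane or V share from a few counts is coarse.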
